A study of Mus musculus with 7 samples.

Results

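The 10 genes described here are used by gamma-delta T cells and innate lymphoid cells and were followed in whole thymi of RelB-deficient mice: Sox13, Maf, Rora, Gata3, Id2, Il17a, Il23r, Il17rb, Blk and Cd163l1. Every probe that the platform annotation assigns to one of these symbols was taken, which gave 14 of the 25695 probes on the array. RelB is a subunit of NF-kappaB that medullary thymic epithelium needs for its development. Total RNA of the thymus was measured on Illumina bead arrays in 4 RelB+/- and 3 RelB-/- mice, all 8 weeks old, with 1 array per mouse. The sample titles call the heterozygous mice wild type, so the control group carries 1 intact copy of Relb and no RelB+/+ thymus was compared. The sources used here name no strain or sex.

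The Relb probe (ILMN_1246841) passed detection in 4 of 4 RelB+/- thymi and in 0 of 3 RelB-/- thymi. Its normalized log2 intensity was 7.004, 7.12, 7.10 and 7.15 in RelB+/- and 4.68, 4.39 and 4.31 in RelB-/-, which is at least 4.48-fold lower in RelB-/- (limma adjusted p = 0.000235). How Relb was disrupted, and where the probe lies relative to it, are not stated in the labels. The thymus label was checked against 10 markers of double-positive thymocytes, of which 9 had a kept probe, with a mean log2 level of 9.95 to 10.2 in RelB+/- and 10.1 to 10.3 in RelB-/-. The probe for Cd8a was detected on 0 arrays. Between 45.9% and 49.4% of probes were detected per array. The mean of 2 heart muscle probes stood at 11.1 on RelB+/- 2 and at 12.9 on RelB-/- 3, against 5.80 to 6.29 on the other 5 arrays, and each member difference is also given without both of these arrays. The mean log2 level of medullary epithelium markers was 7.18 to 7.56 in RelB-/- against 8.77 to 8.93 in RelB+/-, with 9 of 9 kept probes lower. Of these, 3 probes (for Aire and Fezf2) were detected on RelB+/- arrays only and passed the filter through them. The mean log2 level of NK and NKT cell markers was 6.87 to 7.06 in RelB-/- against 7.27 to 7.70 in RelB+/-, with 5 of 7 kept probes lower. Of these, 1 probe (Klre1) was detected on RelB+/- arrays only and passed the filter through them. Nkg7 differed by only -0.014, and Prf1 (0.14) and Klrb1c (0.15) were not lower. In whole tissue, fewer cells of a type and less RNA per cell cannot be told apart. The p-values cover the spread between these mice, and the number of arrays limits the precision.

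Some gamma-delta T cells leave the thymus already committed to a cytokine program, and gamma-delta T cells that make IL-17A depend on Sox13, Maf and Blk in mice. Innate lymphoid cells carry no antigen receptor and use overlapping transcription factors: Id2 holds E proteins in check, Gata3 and Rora act in the type 2 lineage, and the IL-23 and IL-25 receptors let the cells respond to cytokines of epithelium and myeloid cells. Gata3 and Rora are also used by developing alpha-beta T cells, and Blk by B cells. Arrays of whole thymus do not show which cells a transcript came from.

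Promoter windows were available for 8 of the 10 genes (not for Maf or Blk) and 3 are shown here to show a detected member beside members at background: Il17rb, whose probe had the smallest p of the members without being called, and Il17a and Il23r, the effector cytokine and its inducing receptor, whose probes stayed near background. The windows are from RefSeq (GRCm38.p6), run 5′ to 3′ on the strand of the gene and cover 250 bases before to 50 bases from the annotated start. Capitals mark GATAA, the core letters bound by Gata factors, in Il17rb, and GGTCA or its reverse TGACC, the core letters bound by Ror factors, in Il17a and Il23r.
Il17rb (chr14:30008847-30009146, minus strand): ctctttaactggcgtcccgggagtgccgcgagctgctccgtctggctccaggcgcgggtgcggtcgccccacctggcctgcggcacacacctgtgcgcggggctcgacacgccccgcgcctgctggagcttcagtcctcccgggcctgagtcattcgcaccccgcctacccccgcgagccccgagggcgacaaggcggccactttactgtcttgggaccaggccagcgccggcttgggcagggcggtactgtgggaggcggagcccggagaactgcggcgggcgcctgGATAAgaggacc
Il17a (chr1:20730655-20730954, plus strand): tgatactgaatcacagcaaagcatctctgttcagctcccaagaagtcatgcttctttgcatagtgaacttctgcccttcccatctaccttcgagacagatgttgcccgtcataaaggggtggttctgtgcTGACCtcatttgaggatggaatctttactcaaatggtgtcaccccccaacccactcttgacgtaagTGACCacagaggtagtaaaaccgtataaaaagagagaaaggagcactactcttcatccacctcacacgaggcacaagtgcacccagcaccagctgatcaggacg
Il23r (chr6:67491806-67492105, minus strand): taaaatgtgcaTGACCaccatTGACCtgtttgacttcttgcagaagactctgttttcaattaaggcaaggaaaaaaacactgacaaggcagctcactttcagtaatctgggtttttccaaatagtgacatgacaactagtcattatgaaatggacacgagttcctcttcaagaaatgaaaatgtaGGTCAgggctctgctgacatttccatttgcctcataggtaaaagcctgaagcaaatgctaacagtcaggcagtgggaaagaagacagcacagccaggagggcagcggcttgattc
The GATAA of Il17rb lies 38 bases after the start, that is inside the transcribed part, and GATAA or its reverse TTATC occurred in 2 of the 8 windows, against 25.4% of 32851 RefSeq windows of the same length. The matches of Il17a lie 120 and 54 bases before the start, and those of Il23r lie 239, 229 and 65 bases before it. GGTCA on either strand occurred in 3 of the 8 windows against 40.5% of all windows. The E box CANNTG, which reads the same on both strands and is the site of E proteins, occurred in 6 of 8 against 72.3%. Only the named motif is marked in each window. Il17rb had 0 matches of GGTCA, and Il17a and Il23r had 0 of GATAA. E boxes, left unmarked, numbered 2 in Il17rb, 5 in Il17a and 2 in Il23r. A kappaB site was found in 0 of the 8 windows and in 4.51% of all windows. Such matches describe the letters of these windows and not bound sites.

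The arrays saw 7 of the 10 genes in at least 1 kept probe, where kept means that 3 or more arrays gave a detection p under 0.05. In all, 8 of the 14 probes were kept, 6 of them detected on all 7 arrays, and 4 probes were detected on no array. The 3 genes without a kept probe were Il17a, Il23r and Maf.

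**Figure D1:**
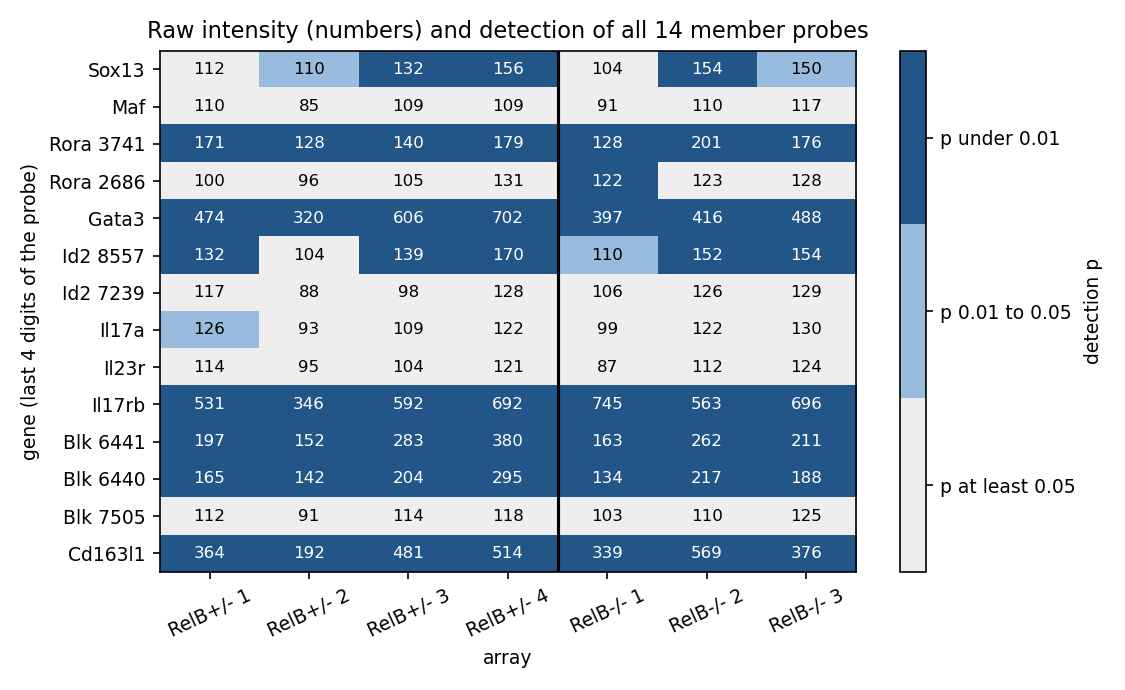
Raw scanner intensity (printed numbers, arbitrary units) of all 14 probes on the 7 arrays (columns, RelB+/- left of the line, RelB-/- right), with the shade giving the detection p of each spot. Gata3, Il17rb, 2 Blk probes, Cd163l1 and 1 Rora probe are detected on every array, while Maf, Il23r, 1 Id2 probe and 1 Blk probe are detected on none.

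Il17a, the effector cytokine of type 17 lymphocytes, was seen above background in 1 of 4 RelB+/- thymi (RelB+/- 1) and in 0 of 3 RelB-/- thymi. The detection p of that spot was 0.0276. Its probe (ILMN_1220595) gave a normalized log2 intensity of 5.05 on RelB+/- 1 and of 4.403 to 4.50 on the other 3 RelB+/- arrays, against 4.46 to 4.52 in RelB-/-. Apart from that 1 thymus the levels lay at background in both genotypes, so no fold is given. Il23r (ILMN_1244322), the receptor that sustains the type 17 program, was detected on 0 of 7 arrays, with log2 levels of 4.38 to 4.59 in RelB+/- and 4.28 to 4.36 in RelB-/-. Maf (ILMN_3100322), a transcription factor of IL-17A-producing gamma-delta T cells, was likewise detected on 0 of 7 arrays, with a lowest detection p of 0.337. These probes were not well above background at this sensitivity, which sets no limit on expression in a small number of cells.

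Among the transcription factors, Gata3, needed throughout T cell development and in type 2 innate lymphoid cells, was detected on all arrays. Its log2 intensity (ILMN_1248843) was 8.54, 8.43, 8.85 and 8.76 in RelB+/- and 8.62, 8.32 and 8.37 in RelB-/-. The genotypes overlapped, with RelB-/- 1 inside the range of the controls and the other two knockout thymi below all 4 controls. The difference was -0.21 (SE 0.16, 95% interval -0.58 to 0.16, limma adjusted p = 0.628), and -0.25 without both thymi that held heart muscle transcripts.

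Rora, a nuclear receptor that type 2 innate lymphoid cells require and type 17 cells also use, had 1 kept probe (ILMN_1243741), with 6.25, 5.998, 5.45 and 5.78 in RelB+/- and 5.92, 6.67 and 5.80 in RelB-/-. RelB-/- 2 was the highest of the 7, and the other two knockout thymi lay within the control range. The difference was 0.26 (SE 0.26, 95% interval -0.34 to 0.86, limma adjusted p = 0.712), and without RelB-/- 2 it was -0.013. Without both thymi that held heart muscle transcripts it was 0.47. The second Rora probe (ILMN_2742686) behaved otherwise: it passed detection on RelB-/- 1 alone, at 5.72, while RelB-/- 2 was at 4.49. The detection p of the RelB-/- 1 spot was 0.00125. The thymus that was highest on the first Rora probe was thus not detected on the other, and the probes did not rank the thymi alike.

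Id2, an inhibitor of E proteins that all innate lymphoid lineages need, was seen by ILMN_1228557 in 3 of 4 RelB+/- and 3 of 3 RelB-/- thymi and by ILMN_2887239 in none. The kept probe gave 5.29, 4.83, 5.42 and 5.62 in RelB+/- and 5.10, 5.62 and 5.20 in RelB-/-, close to the detection limit. The group means were 5.29 ± 0.34 (SD, n = 4) and 5.31 ± 0.27 (SD, n = 3), a difference of 0.016 (SE 0.22, 95% interval -0.49 to 0.52, limma adjusted p = 0.985). Its sign turned with median scaling (-0.11), with cyclic loess (-0.034) and without the 2 thymi that held heart muscle transcripts (-0.087). Id2 is also made by NK cells and dendritic cells. The NK and NKT marker levels are given above, and the mean level of conventional dendritic cell markers was 5.30 to 5.52 in RelB-/- against 5.90 to 6.20 in RelB+/-. That list was split, with Fscn1 (-1.83), Ccl17 (-1.37) and Batf3 (-0.55) lower and Ccr7 (0.083), Zbtb46 (0.055) and Xcr1 (0.015) not, and 1 of the 6 probes (Fscn1) was called. Ccl17 was detected on RelB+/- arrays only and passed the filter through them. The part of NK cells and dendritic cells in the Id2 level was not tested.

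Sox13, a Sox factor that directs gamma-delta T cells toward IL-17A production, passed detection in 3 of 4 RelB+/- thymi and 2 of 3 RelB-/- thymi. Its log2 intensity (ILMN_1244292) was 4.53, 5.21, 5.22 and 5.34 in RelB+/- and 4.76, 5.69 and 5.08 in RelB-/-. The lowest thymus of each genotype was not detected, and the difference of 0.099 (SE 0.27, 95% interval -0.52 to 0.71, limma adjusted p = 0.911) was smaller than the spread within either group. Its direction turned without RelB+/- 1 (-0.084) and without RelB-/- 2 (-0.16), and it was 0.19 without both thymi that held heart muscle transcripts.

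**Figure D2:**
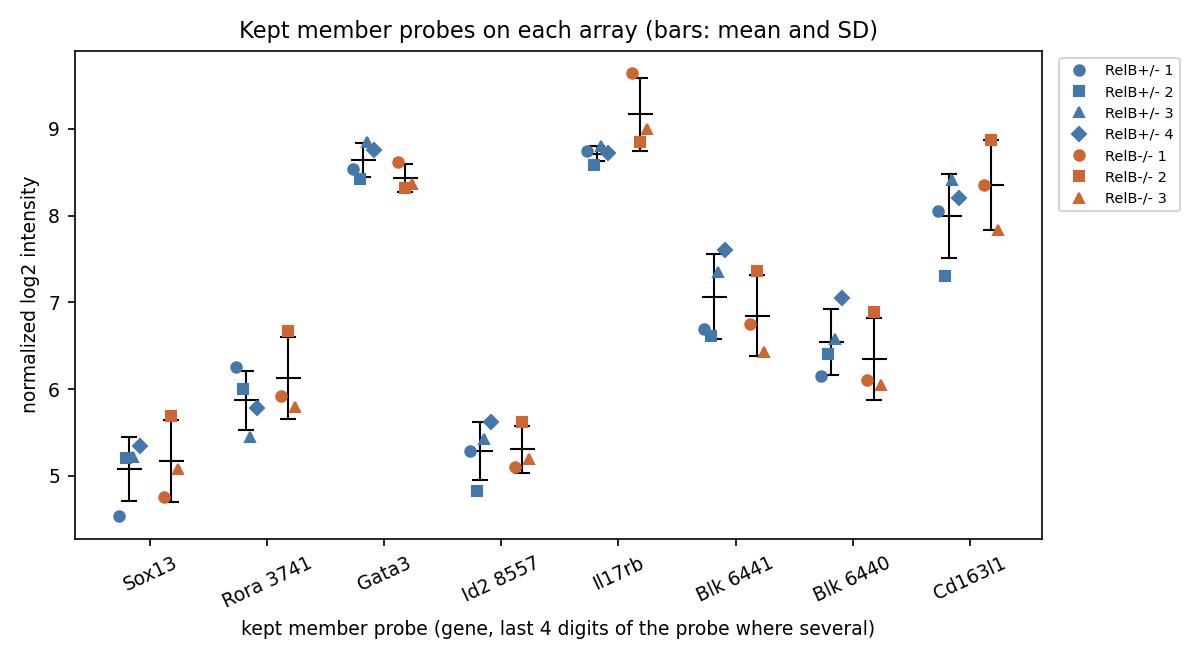
Normalized log2 intensity (y axis) of each kept probe (x axis) in the 4 RelB+/- thymi (blue) and the 3 RelB-/- thymi (orange), with a marker shape per array and bars for the mean and SD of each genotype. The groups overlap for every probe except Il17rb, where the 3 RelB-/- points lie above the 4 RelB+/- points.

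Il17rb is the subunit of the IL-25 receptor that binds IL-25 and is carried by type 2 innate lymphoid cells and a subset of NKT cells. Among the 8 kept member probes, its probe was the only 1 whose genotypes did not overlap, a pattern that 12.7% of all kept probes showed. Its log2 intensity (ILMN_2770260) was 8.74, 8.59, 8.80 and 8.73 in RelB+/- and 9.64, 8.85 and 9.0 in RelB-/-. The 4 controls lay within a narrow band and the 3 knockout thymi stood above it, RelB-/- 1 by the most. The means were 8.71 ± 0.088 (SD, n = 4) and 9.17 ± 0.42 (SD, n = 3), a fold of 1.37 (95% interval 0.995 to 1.88), which did not pass the test (limma adjusted p = 0.425). Before normalization the raw intensities, 530.6, 346, 591.6 and 692.1 against 745.1, 562.6 and 695.9, overlapped. The difference of 0.45 in log2 (SE 0.20) was 0.21 without RelB-/- 1 and was 0.60 without RelB-/- 2 and 0.49 without RelB+/- 2 and RelB-/- 3 together. The mean level of NK and NKT markers, given above, was lower in the same 3 thymi. The part of these cells in the Il17rb level was not tested.

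The 3 probes of other genes most like Il17rb across the 7 arrays were those of 6330403K07Rik (Pearson r = 0.976), Slc4a3 (r = 0.9748) and Arid4b (r = 0.972). These were picked as the highest of all kept probes, so their r is a description only. Each was also highest on RelB-/- 1, at 6.15, 6.23 and 6.83, and their own differences of 0.53, 0.53 and 0.43 did not pass the test (limma adjusted p = 0.453, 0.447 and 0.447). Chdh, a choline dehydrogenase gene whose annotated start lies beside that of Il17rb, had differences of 0.32 and 0.16 on its 2 kept probes (limma adjusted p = 0.482 and 0.763).

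Blk, a Src family kinase of B cells that also promotes IL-17A-producing gamma-delta T cells, was measured by 2 kept probes, and the remaining probe (ILMN_2697505) was detected on 0 of 7 arrays. ILMN_2976441 gave 6.69, 6.61, 7.35 and 7.60 in RelB+/- and 6.75, 7.36 and 6.43 in RelB-/-. ILMN_2976440 gave 6.15, 6.40, 6.58 and 7.05 against 6.10, 6.89 and 6.05. Both probes put RelB+/- 4 first, RelB-/- 2 second and RelB-/- 3 last, and their differences were -0.21 (SE 0.31, limma adjusted p = 0.802) and -0.20 (SE 0.27, limma adjusted p = 0.789). With array weights, these became 0.055 and 0.015. Leaving out 1 array moved ILMN_2976441 from -0.47 (without RelB-/- 2) to -0.0061 (without RelB-/- 3) and ILMN_2976440 from -0.47 (without RelB-/- 2) to -0.032 (without RelB+/- 4). Without both thymi that held heart muscle transcripts the differences were -0.16 and -0.099.

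Because B cells carry Blk, the B cell markers are given beside it. Of 9 listed, 8 were on the array and 3 (Cd79a, Cd79b and Fcrla) had kept probes, 7 in all, while Ms4a1, Pax5 and Cr2 were detected on no array. All 7 probes were lower on average in RelB-/-, with a median difference of -0.47, and 0 were called (lowest limma adjusted p = 0.108). Of these, 2 probes (Cd79a and 1 of Fcrla) were detected on RelB+/- arrays only and passed the filter through them. The mean marker level was 6.48, 6.64, 6.88 and 7.04 in RelB+/- 1 to 4, the same order as ILMN_2976440. The other kept Blk probe, ILMN_2976441, did not share this order, with RelB+/- 2 (6.61) below RelB+/- 1 (6.69). In RelB-/- the markers were at 6.48, 6.16 and 6.05, with RelB-/- 2 not the highest, whereas it was the highest for both Blk probes. The part of B cells in the Blk level was not tested.

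Cd163l1, also named Scart1, a scavenger receptor of the cysteine-rich family that gamma-delta T cells of mice carry, was detected on all arrays. Its log2 intensity (ILMN_2629663) was 8.05, 7.31, 8.42 and 8.21 in RelB+/- and 8.35, 8.87 and 7.83 in RelB-/-. The lowest thymus of each genotype, RelB+/- 2 and RelB-/- 3, was the one with heart muscle transcripts. The difference was 0.36 (SE 0.32, 95% interval -0.36 to 1.08, limma adjusted p = 0.664), and 0.39 without both of those arrays. Leaving out each alone moved it in opposite directions, to 0.13 without RelB+/- 2 alone and to 0.62 without RelB-/- 3 alone, and it was 0.095 without RelB-/- 2. The neighbouring gene 5830411N06Rik, also named Scart2 and a related receptor of gamma-delta T cells, was detected on 0 of 7 arrays.

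Over the 8 kept probes, 0 were called at a limma adjusted p under 0.05, and 0 had an unadjusted p under 0.05. Over all 12465 kept probes 0.554% were called (69 probes), 0.489% lower and 0.0642% higher in RelB-/- (61 and 8 probes), and 11.9% had an unadjusted p under 0.05. The share of kept member probes whose groups did not overlap was 12.5% (1 of 8), against 12.7% of all kept probes. Of the 8, 5 differences were positive and 3 negative, with a median of 0.057 against 0.015 over all kept probes. The 95% interval lay within 1 log2 unit of 0 for 7 of the 8, the exception being Cd163l1. Sox13 and Id2 lay close to the lowest detected signal of the arrays (4.83 to 4.98), where a lower level has little room to show on this scale.

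**Figure D3:**
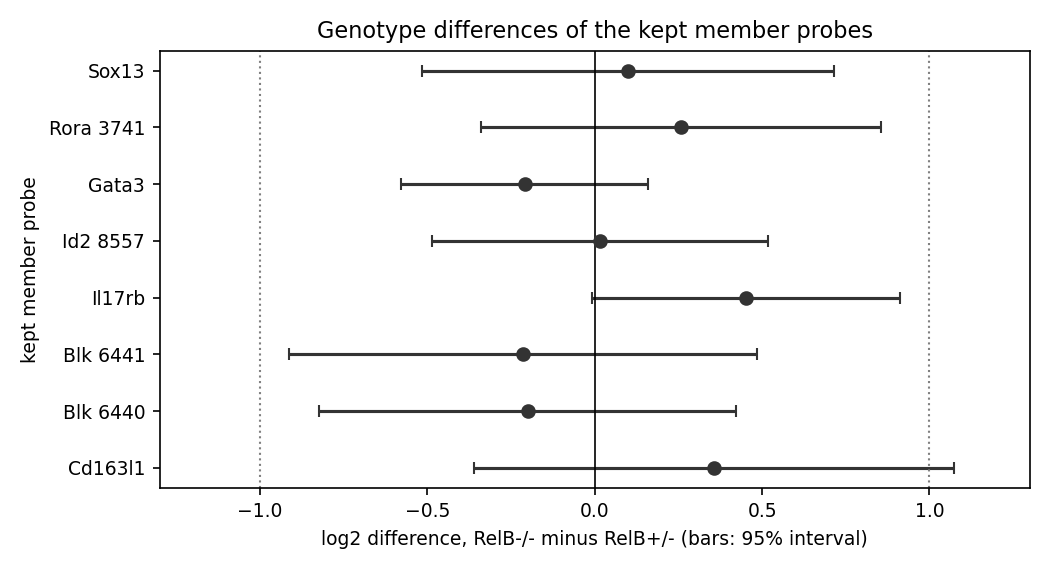
Log2 difference of each kept probe, RelB-/- minus RelB+/- (x axis), with its 95% interval as bars and dotted lines at 1 log2 unit either side of 0. All 8 intervals include 0, and the Il17rb interval starts at -0.0074.

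Within each genotype, the same thymus was often the highest for several of the genes. RelB-/- 2 was the highest of its genotype for Sox13, Rora, Id2, both Blk probes and Cd163l1 and the lowest for Gata3 and Il17rb. RelB+/- 4 was the highest of its genotype for Sox13, Id2 and both Blk probes. RelB-/- 1, the highest thymus for Il17rb, was the lowest of its genotype for Sox13 and Id2.

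**Figure D4:**
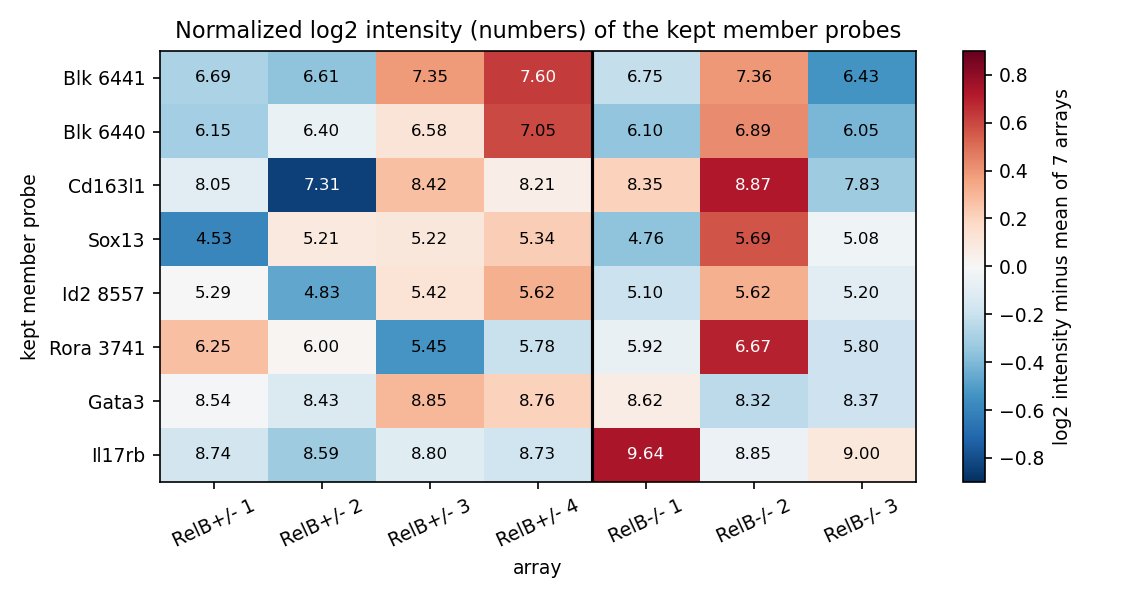
Normalized log2 intensity (printed numbers) of the 8 kept probes on each array, coloured by the difference from the mean of that probe over the 7 arrays. RelB-/- 2 is red for 6 of the 8 probes, and the highest Il17rb value, 9.64, stands on RelB-/- 1.

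The wider programs were read from 7 lists of 140 genes, of which 93 were on the array and 55 had kept probes (77 probes). None of the 77 was called, and 9.09% had an unadjusted p under 0.05 (6 lower, 1 higher), against 11.9% of all kept probes. Their median difference was 0.019.

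The list of 28 type 17 partners had 27 kept probes for 16 genes, with 15 differences negative, 12 positive and a median of -0.036. Ccr6, the chemokine receptor that type 17 cells carry, gave 6.67, 6.02, 6.04 and 6.30 in RelB+/- and 5.53, 5.91 and 4.89 in RelB-/- on ILMN_2888448. The genotypes did not overlap, yet the difference of -0.82 (SE 0.27) missed the threshold (limma adjusted p = 0.322), and the second kept Ccr6 probe gave 0.095. Il7r, the receptor for the survival cytokine of lymphocytes, differed by -0.45 (SE 0.17, limma adjusted p = 0.352) on ILMN_2680827 and by -0.34 on its other kept probe. In this list 7 genes were detected on no array, Il17f and Il22, the partner cytokines of Il17a, among them.

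The list of 20 type 2 and IL-25 partners had 9 kept probes, 7 positive and 2 negative, with a median of 0.26. Klrg1, a lectin-like receptor of mature type 2 innate lymphoid cells and of effector lymphocytes, passed detection in 0 of 4 RelB+/- thymi and 3 of 3 RelB-/- thymi. Its levels in RelB-/- were 5.33, 5.64 and 6.23, and their mean was at least 1.81-fold higher than in RelB+/-, with a limma adjusted p of 0.123, so it was not called. Klrg1 passed the detection filter only through the RelB-/- arrays. Il2ra, the IL-2 receptor alpha chain, differed by 0.37 (limma adjusted p = 0.531). The IL-25 gene Il25 and the type 2 cytokine gene Il5 were detected on no array. The type 2 cytokine genes Il13 and Il4 were detected on all 7 arrays. They differed by -0.30 and 0.41 (limma adjusted p = 0.568 and 0.722).

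The 22 lymphoid tissue inducer and innate progenitor genes had 14 kept probes, 11 negative and 3 positive, with a median of -0.28. Il18r1, the IL-18 receptor of NK, NKT and type 1 cells, gave 5.78, 5.23, 5.67 and 5.88 in RelB+/- and 4.88, 4.96 and 5.17 in RelB-/-, a difference of -0.63 (SE 0.19, limma adjusted p = 0.279). Cxcr5, a chemokine receptor of B cells and lymphoid tissue inducer cells, was seen by ILMN_2990502 in 4 of 4 RelB+/- thymi and 0 of 3 RelB-/- thymi, at least 1.504-fold lower in RelB-/- (limma adjusted p = 0.335). Neither was called. Cxcr5 on this probe and Il2rb passed the detection filter only through RelB+/- arrays, and both are among the 11 negative differences. The levels of NK, NKT and B cell markers are given above, and their part was not tested.

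The remaining 4 lists had medians between 0.059 and 0.18. The gamma-delta T cell receptor list held 0 probes for Trg or Trd symbols, so the receptor itself was not measured. Its 12 kept probes, for signalling and co-receptor genes not particular to gamma-delta T cells, had a median of 0.060, and 3 of the differences were negative and 9 positive. Cd27 stood at 0.21 on ILMN_3128992 (limma adjusted p = 0.581) and at 0.019 and -0.13 on its other probes. Cd28 stood at -0.23 on ILMN_2589865 (limma adjusted p = 0.663) and at -0.093 and 0.16 on its other probes. The Id and E proteins had a median of 0.14 over 6 probes, with the E protein gene Tcf12 at 0.27 (limma adjusted p = 0.617) and Id1 at -0.58 (limma adjusted p = 0.627). Relatives of Gata, Ror, Maf and Sox factors had a median of 0.18 over 7 probes, with Mafg at 0.41 (limma adjusted p = 0.505) and Mafa at 0.24 (limma adjusted p = 0.723). The list of Src family kinases, which also held Csk, a kinase outside that family, had a median of 0.059 over 3 probes. These were Src at -0.46 (limma adjusted p = 0.539), Fyn at 0.18 (limma adjusted p = 0.828) and Csk at 0.059 (limma adjusted p = 0.897).

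**Figure D5:**
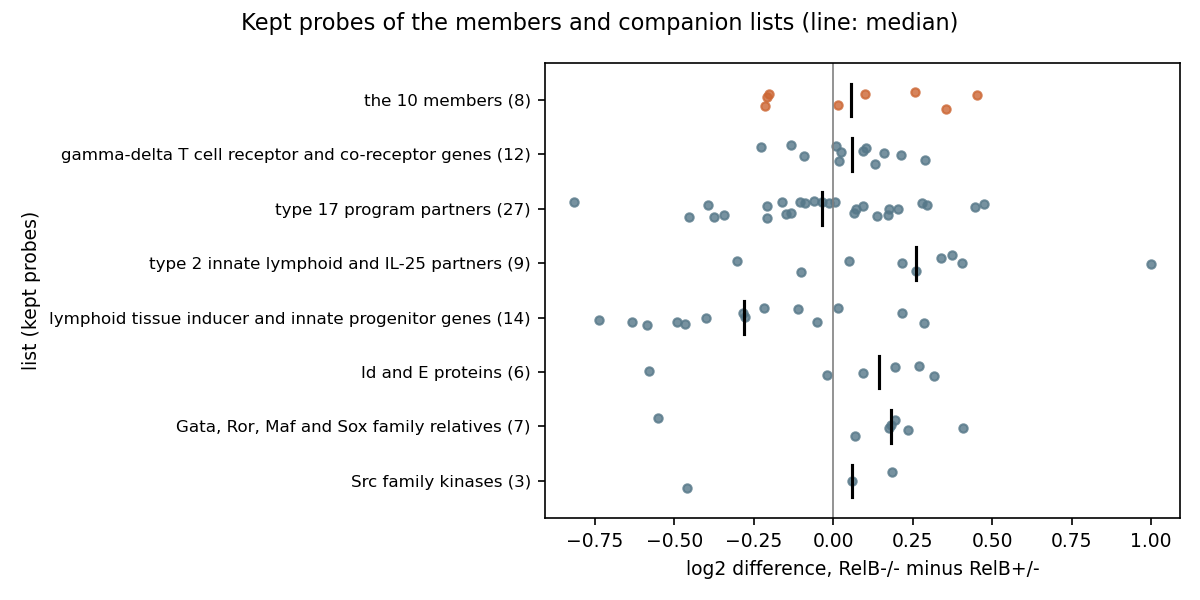
Log2 difference, RelB-/- minus RelB+/- (x axis), of each kept probe (points) of the 10 genes (orange) and the 7 companion lists (blue), with the median of each list as a vertical line. The medians run from -0.28 for lymphoid tissue inducer and innate progenitor genes to 0.26 for type 2 partners, and 0 of the points were called.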

How the data were processed

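Raw probe intensities and detection p-values of 7 arrays (4 RelB+/-, 3 RelB-/-) were deposited by the authors, not normalized between arrays per the file headers, along with a second table of processed values whose range is that of a log2 scale. The submitters' processing notes name GenomeStudio without a version. The processed log2 values deposited by the authors ranked the probes of each array as the raw intensities do (lowest Spearman correlation 0.999998), and their transformation is not stated. Sample columns were matched to labels by name, and 0 columns were left out. Probes were named from the platform annotation: 23976 had 1 symbol, 1719 none and 0 several.

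The raw intensities were corrected by normexp with detection p-values (offset 16), put on the log2 scale and quantile-normalized in limma 3.58.1 (R 4.3.3). A probe was kept where 3 or more of the 7 arrays gave a detection p under 0.05 (12465 probes). Genotypes were compared with lmFit and eBayes over all kept probes, with Benjamini-Hochberg adjustment and calls under 0.05. A probe detected on no array of a group got a bound against the lowest detected signal. Correlations between arrays were 0.951 to 0.985. The median intensity per array was 103.5 to 142.3.

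The genes and lists were chosen with earlier results of these data known. Named were Relb, every member probe, the 2 kept members of each companion list with the smallest unadjusted p, and the 3 probes most like the member probe with the smallest p. Any other gene was named after its values were seen. Alternatives covered background correction, normalization, the authors' processed values, detection filter, variance model, array weights, probes per gene, the replicate number as a block, chip position, left-out arrays and the threshold. All arrays were on 1 chip. Whether the replicate numbers of the titles pair the mice is not known. Deviations of same-numbered arrays correlated at 0.302, -0.158 and -0.192, which cannot settle how the mice were matched. Of the marker lists not given above, macrophages had a median difference of 0.15 and adipocytes of -0.59, with 0 probes called in either. In medullary epithelium 4 probes were called lower, in NK and NKT cells 2 and in conventional dendritic cells 1. Over all kept probes 0.489% were called lower. Among these calls, Aire (ILMN_2707921), Fezf2 and Klre1 were detected on no RelB-/- array and passed the filter through RelB+/- arrays. Double-positive thymocyte and heart muscle markers had 0 called. Figures were drawn with matplotlib 3.10.9 (Python 3.11.15, pandas 2.3.3).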

Additional observations from a re-analysis of the deposited data

Results flagged for a closer look

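The Sox13 probe stood apart on RelB+/- 1, at a log2 intensity of 4.533 against 5.21 to 5.34 in the other 3 RelB+/- thymi, a gap of 0.834 of the range of the group, just above the critical value of Dixon's test. The spot was not detected there. Chance marks about 1 in 20 such groups, and 8 probes were tested. The second Rora probe, which the detection filter left out of the main comparison, was detected on RelB-/- 1 alone, at 5.72, and on 0 of 4 RelB+/- arrays. In the fit without that filter its difference was 0.41 (limma adjusted p = 0.738), and it was not called.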

How the results depend on the processing

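Across 24 alternatives, 7 of them leaving out 1 array, the number of member probes called stayed at 0, and adjusted p of the member probes ran from 0.336 to 0.996. The thresholds, variance models, detection filters and chip position leave a difference itself as it is, and the other alternatives recompute it. The 10 differences that turned were Sox13 without RelB+/- 1 (-0.084) and without RelB-/- 2 (-0.16), Rora without RelB-/- 2 (-0.013), Id2 with median scaling (-0.11), cyclic loess (-0.034), without RelB+/- 2 (-0.14), without RelB-/- 2 (-0.14) and without RelB+/- 2 and RelB-/- 3 together (-0.087), and the Blk probes with array weights (0.015 and 0.055). Without 1 array, Sox13 ran from -0.16 to 0.32, Rora from -0.013 to 0.42 and Id2 from -0.14 to 0.12. The cause was not tested. Il17rb was positive in each alternative, between 0.21 (without RelB-/- 1) and 0.60. The number of all probes called, 69, was 25 with the authors' processed values, 21 without RelB+/- 2 and RelB-/- 3 together, 1486 at an unadjusted p under 0.05, and 33 to 68 without 1 array (33 without RelB+/- 1, 44 without RelB+/- 2, 45 without RelB+/- 3, 37 without RelB-/- 1). For the companion lists the count rose from 0 to 7 at the unadjusted p. With the replicate number as a block 20 probes were called, and Il17rb stood at 0.46 (limma adjusted p = 0.547). Whether the numbers pair the mice is not known, and of the RelB+/- arrays only RelB+/- 1 correlated best with its own number. Il17a, Il23r and Maf are limited by signal near background.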
